A study of Mus musculus with 21 samples.

Results

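Late-passage CLiPs after 8 days of hepatic induction (3 arrays) were compared with late-passage CLiPs at day 0, before induction (3 arrays), which took in 6 of the 21 arrays of the study. CLiPs, chemically induced liver progenitors, are proliferating cells obtained in culture from mouse hepatocytes. The 6 arrays were chosen by their titles, and every gene on the array was considered. Cells came from female C57BL/6 mice, with replicates 1 and 2 of each group at passage 12 and replicate 3 at passage 11. Induced cells received oncostatin M and dexamethasone for 8 days, and day-0 cells were taken before this induction. Another 3 late-passage arrays, called uninduced here, held cells kept for the same 8 days without the addition of both agents. Cells of passage 1, called P1 cells, were profiled in the same 3 states and enter at the end. The rest of the culture medium, and whether replicates were separate cultures or animals, are not given in the sources used here, so the p-values speak of the spread among these arrays alone, which may be technical. Whether the medium of day-0 or uninduced cells held any glucocorticoid is therefore not known here.

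Oncostatin M is a cytokine of the interleukin-6 family that binds a receptor of OSMR and gp130 chains, activates JAK kinases and STAT3, and promotes hepatocyte maturation in fetal liver and in culture. Dexamethasone is a synthetic glucocorticoid that activates the glucocorticoid receptor, Nr3c1. Hepatocytes answer both signals together with the acute-phase response, the secretion of plasma proteins such as fibrinogen, haptoglobin and serum amyloid A. Hepatocytes in liver seldom divide, and progenitor-like cells in culture do.

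Levels are log2 signals minus the 75th percentile of the array, so a level of 0 is the signal that 75% of the probes lay below, and a change of 1 is 2-fold. Levels of different genes come from different probes and are not ranked against each other. The 75th percentile signal was 881 to 1241 on the 9 late arrays, 56.6% to 60.5% of probes were well above background, no spot was saturated, and arrays of a group correlated at 0.981 to 0.989. Induced replicate 3 was alone on its slide, while the other late arrays shared a slide, on which the day-0 arrays lay in row 1 and induced replicates 1 and 2 in row 2. Slide row and group cannot be told apart for those arrays. Changes were tested with limma across the 9 late arrays, and a gene was called, and is said to have risen or fallen, at a Benjamini-Hochberg adjusted p under 0.05 and at least 2-fold.

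Markers of hepatocytes and of other liver cell types were read on the same arrays. Of 10 hepatocyte markers, 8 were well above background on all 6 arrays, and their summed signal was 56.5 to 123 times the 75th percentile signal at day 0 and 273 to 596 times after induction. Of the mature-hepatocyte genes, neither Cyp2e1 nor Arg1 cleared background on any of the 6 arrays, and Pck1 did on 1. For endothelial cells 3 of 12 markers were well above background on all 6 arrays and 7, Cdh5, Kdr and Lyve1 among them, on none. Their summed signal was 0.375 to 0.461 at day 0 and 0.472 to 1.08 after induction. Among Kupffer cell and macrophage markers, 6 of 14 were on all 6 arrays and 6 (Adgre1, Cd5l, Vsig4, Timd4, C1qa and C1qc) on none. The sum was 15.8 to 21.7 at day 0, 39.6 to 45.3 in uninduced cells and 27.3 to 31.7 after induction. Of 15 stellate cell and fibroblast markers 3 were on all 6 arrays and 8, Lrat, Pdgfrb and Col1a1 included, on none. Their sums were 15.5 to 17.6 at day 0 and 16.4 to 35.1 after induction. The part of these cell types in the results below was not tested, and in bulk samples more cells of a type and more RNA per cell cannot be told apart.

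After 8 days of induction, genes of secreted liver proteins rose, while genes of the cell cycle, cholesterol synthesis and chemokines fell. Among genes with a symbol, well above background on all 6 arrays and without overlap between groups, the largest rise was 1400-fold. Of 21091 genes tested, 2338 rose (11.1%) and 2056 fell (9.75%), of which 258 and 155 changed at least 16-fold, and the median change of all tested genes was 0.05. The induced arrays lay wholly above the day-0 arrays for 2315 of the genes that rose and wholly below for 2036 of those that fell, whereas over all tested genes such a separation held for 32.6% and 29.4% (62.1% in either direction). In the same fit, 8 days without induction raised 1662 genes (7.88%) and lowered 1365 (6.47%) against the same day-0 arrays, and 623 and 622 genes (2.95% each) were higher and lower in induced than in uninduced cells. Testing required a probe clear of background on all 3 day-0 or all 3 induced arrays. A gene seen in the induced group alone could therefore enter only as higher. A gene seen in uninduced cells alone was not tested, so the counts for uninduced cells leave such genes out. Counts in the gene lists are therefore given for the members tested and for those measured on all 6 arrays, where 8.94% of 19018 genes rose and 8.62% fell.

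**Figure D1:**
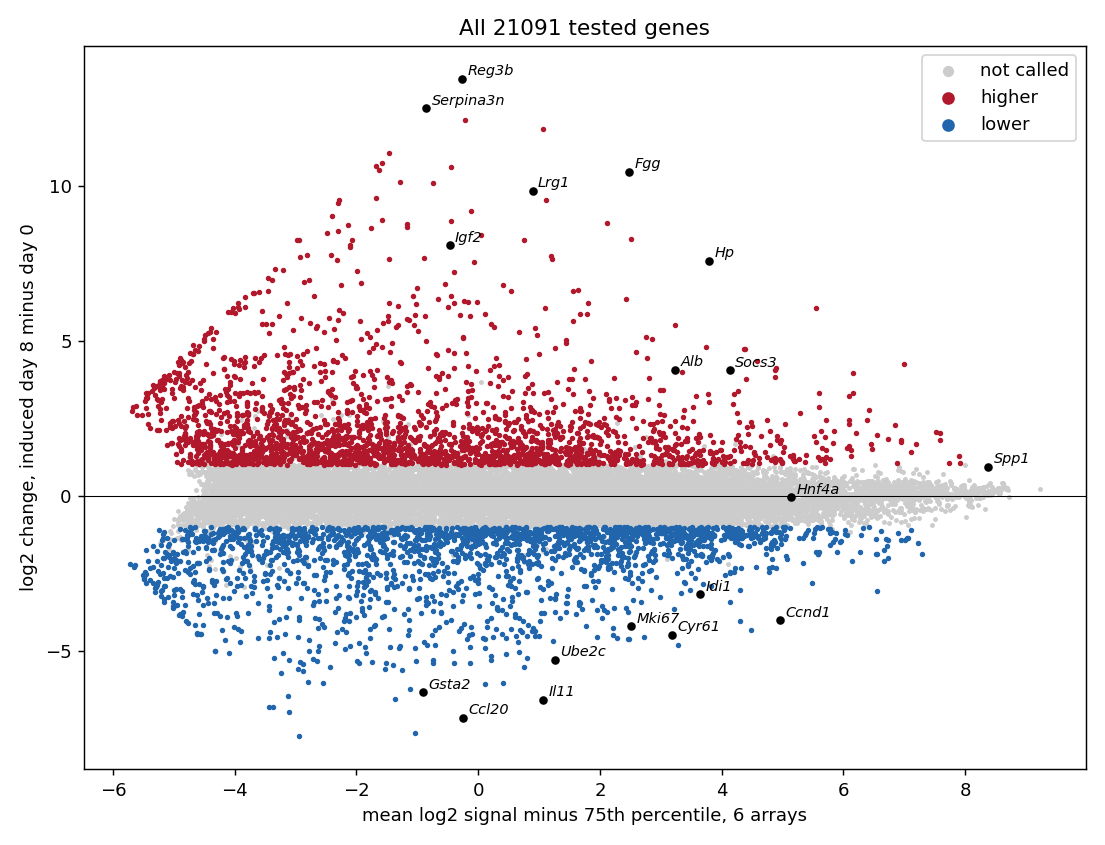
Log2 change from day 0 to induced day 8 (vertical) against the mean log2 level over both groups relative to the array's 75th percentile (horizontal) for the 21091 genes tested, with genes that rose in red, those that fell in blue, those not called in grey and 18 labelled genes as black points. The 2338 genes that rose reach larger changes than the 2056 that fell.

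Signalling genes of both inducers changed in the induced cells. On the oncostatin M list, 10 of 21 tested members rose and 3 fell, with a median change of 0.77, and all 21 were measured on all 6 arrays. Osmr, the ligand-binding receptor chain, stood at 1.20, 0.91 and 1.74 at day 0 and at 4.88, 4.64 and 4.58 after induction. It rose (3.41, SE 0.22, adjusted p = 7.4e-06) without overlap, and uninduced cells were in between at 3.95, 3.52 and 3.51. Among the other receptor chains, Il6st, which encodes gp130, rose by 1.34 and Il6ra by 2.19, whereas Lifr, the receptor for leukemia inhibitory factor, fell by 1.33, with 1 of its probes at -0.89. Stat3, the transcription factor of the pathway, rose by 1.43 (SE 0.08, adjusted p = 3.5e-06), but another of its 3 probes gave 0.86.

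Feedback inhibitors of the pathway went in opposite directions. Socs3, the inhibitor that STAT3 induces, was at 1.89, 1.99 and 2.46 at day 0, at 3.40, 2.85 and 3.45 uninduced and at 6.18, 5.98 and 6.33 induced. The 3 groups did not overlap, the rise from day 0 was 16.6-fold (4.05, SE 0.21, adjusted p = 2.5e-06), and induced cells exceeded uninduced cells by 2.93 (adjusted p = 0.00017). Socs2, a feedback inhibitor of growth hormone signalling, fell by 2.13, although its 4 probes ranged from -2.13 to 0.35 and their mean was not called (-0.93), and Socs1 fell by 1.58. Cish, a related inhibitor, rose by 1.41, and Jak1, Jak2 and Tyk2 were not called, with changes of 0.35, 0.77 and 0.16.

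Most genes of the glucocorticoid list rose. Of 22 tested members of the list, all measured on all 6 arrays, 14 rose and none fell, with a median of 1.53; 9 were also higher in induced than in uninduced cells. Tsc22d3, which encodes the glucocorticoid-induced leucine zipper protein GILZ, was at 2.52, 2.29 and 2.73 at day 0, at 4.71, 4.75 and 4.60 uninduced and at 6.34, 6.30 and 6.22 induced. Its groups were ordered without overlap, and the rise from day 0 was 13.7-fold (3.78, SE 0.12, adjusted p = 2.9e-07). Fkbp5, a co-chaperone that limits receptor activity, was at 3.55, 3.52 and 3.68 at day 0 and at 5.33, 5.13 and 5.15 induced. That is a rise of 1.62, and without induction its levels were 3.26, 3.08 and 2.70, below day 0. Larger rises were those of Zbtb16, a zinc finger transcription factor (4.76), and Pdk4, an inhibitor of pyruvate dehydrogenase (3.86). The receptor Nr3c1 itself was not called, with 0.56 on the probe used and -0.11 on the other. Nor was Tat, a classical glucocorticoid target of hepatocytes, with -2.74, -2.81 and -2.69 at day 0 and -2.43, -2.32 and -2.51 induced.

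**Figure D2:**
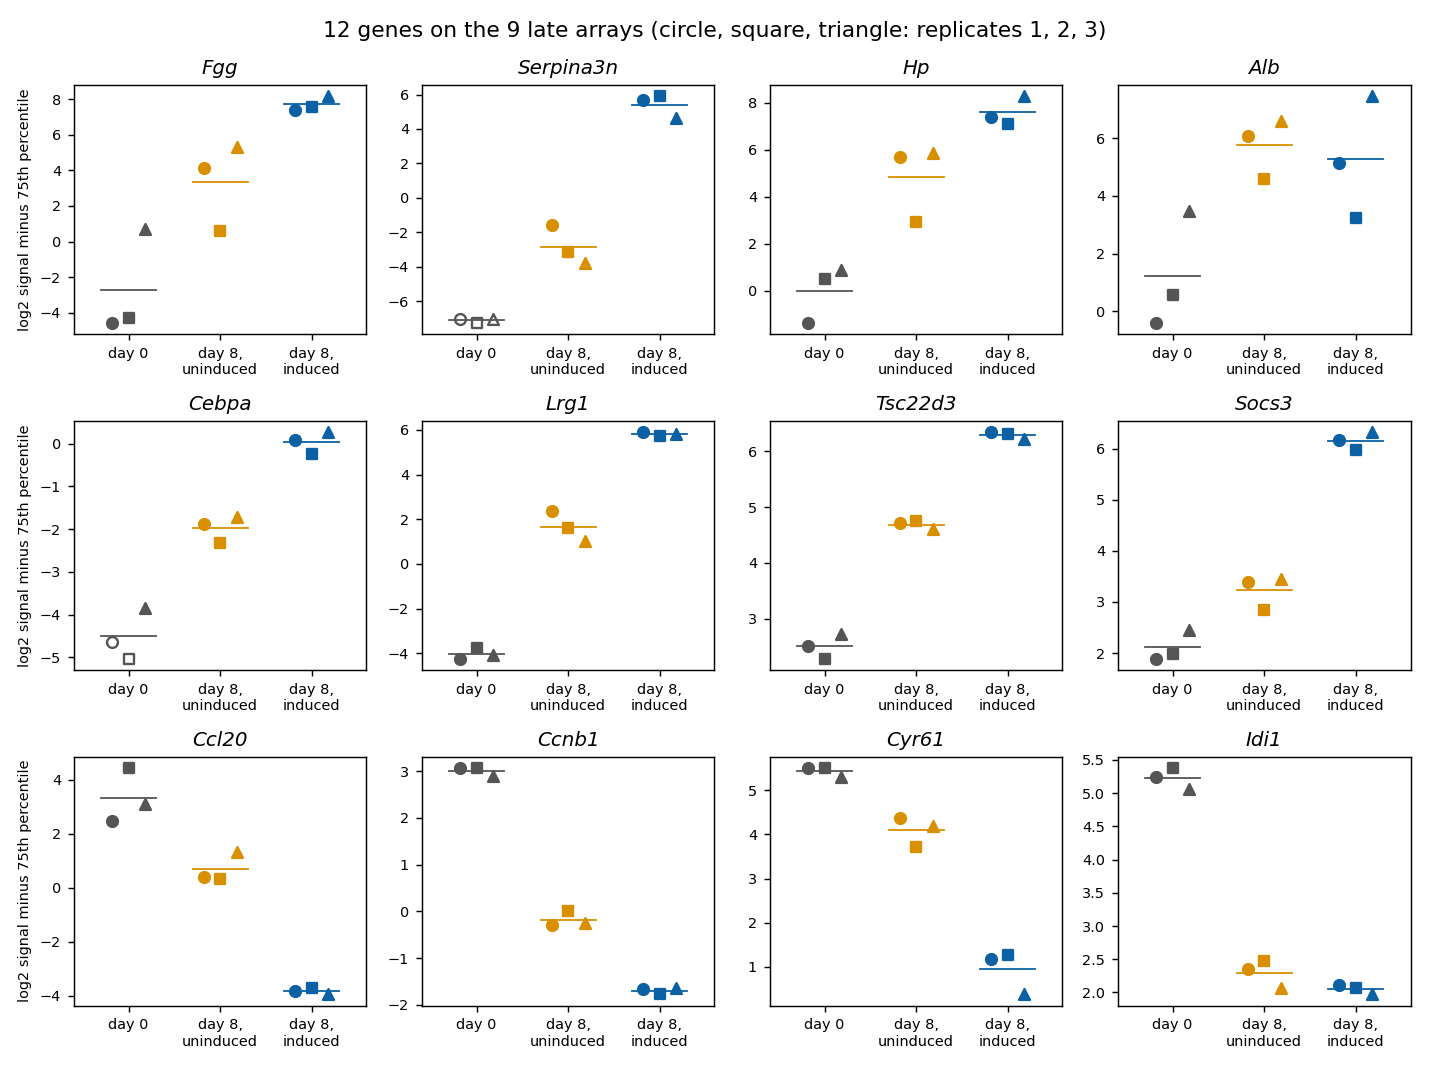
Log2 level relative to the array's 75th percentile for 12 genes on each of the 9 late arrays at day 0, uninduced day 8 and induced day 8 (circle, square and triangle for replicates 1, 2 and 3, open where not well above background, line at the group mean). For Socs3 and Tsc22d3 the 3 groups separate, with induced cells highest, and for Ccnb1 and Ccl20 induced cells are lowest, whereas Alb overlaps between day 0 and induced cells.

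Acute-phase genes had the largest median rise of the 27 gene lists. Of 32 genes on the list, 29 were tested, of which 27 rose and 1 fell, with a median change of 6.34. Only 15 were measured on all 6 arrays, and of these 14 rose, with a median of 5.66. Fgg, the fibrinogen gamma chain, was at -4.57, -4.32 and 0.68 at day 0 and at 7.39, 7.57 and 8.17 induced. The lone high day-0 array was replicate 3, and no array of the induced group came near it. The change was 1400-fold (10.45, SE 1.57, adjusted p = 0.00072), and leaving out 1 array at a time moved it between 9.53 without day-0 replicate 1 and 12.16 without day-0 replicate 3. Uninduced cells spanned 0.57 to 5.34, and their difference from induced cells did not pass the test (4.37, adjusted p = 0.092). Hp, haptoglobin, which binds free haemoglobin, was at -1.36, 0.49 and 0.87 at day 0 and at 7.41, 7.08 and 8.28 induced, a rise of 7.59 (SE 0.87, adjusted p = 0.00016).

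Several acute-phase genes were not well above background on any day-0 array, so their folds are lower bounds. The bound sets the induced mean against, per day-0 array, either the gene's own signal or the weakest signal that cleared background on that array, whichever was higher. Serpina3n, a secreted protease inhibitor, was at 5.67, 5.90 and 4.62 induced and at least 1160-fold higher than at day 0. Serpina3k was at least 464-fold, Serpina3c at least 342-fold, Orm1 at least 92.4-fold and Saa2 at least 86.4-fold higher. Serpina3m, on 1 of 3 day-0 arrays well above background, went from -5.42, -4.39 and -4.75 to 6.70, 6.72 and 7.54. Uninduced cells had -2, -4.63 and -2.98, and the difference of 10.19 from induced cells was called (adjusted p = 1e-04). Serum amyloid A gene Saa1 rose less, from -1.16, -1.15 and -0.98 to 2.31, 0.76 and 3.19 (3.18, SE 0.64), and uninduced cells were at 4.01, 2.21 and 3.75, overlapping the induced ones. The member that fell was Il1rn, the interleukin-1 receptor antagonist, from -0.77, 0.56 and -0.14 to -4.03, -5.04 and -4.50 (-4.40, SE 0.35). Over the list, 13 members were higher and 2 lower in induced than in uninduced cells.

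Fibrinogen is made of 3 chains whose genes lie side by side on chromosome 3, and STAT3 is known to bind the sequence TTCNNNGAA, where N is any base. The 250 bases before the start of Fga and Fgb, both of which rose, are shown because each holds that motif, in capitals, on the strand of the gene. Sequences are from RefSeq, build GRCm38.p6, at chr3:83025903-83026152 (plus strand) for Fga and chr3:83049864-83050113 (minus strand) for Fgb.
Fga: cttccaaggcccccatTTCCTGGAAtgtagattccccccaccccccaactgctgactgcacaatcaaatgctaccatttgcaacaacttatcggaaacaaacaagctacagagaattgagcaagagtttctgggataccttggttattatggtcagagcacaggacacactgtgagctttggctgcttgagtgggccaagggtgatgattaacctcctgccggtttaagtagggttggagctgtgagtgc
Fgb: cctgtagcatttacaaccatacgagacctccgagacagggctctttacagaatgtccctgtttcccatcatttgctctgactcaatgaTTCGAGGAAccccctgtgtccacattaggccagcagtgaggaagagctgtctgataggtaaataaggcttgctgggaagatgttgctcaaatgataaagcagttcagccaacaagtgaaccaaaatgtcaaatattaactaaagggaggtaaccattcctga
Counted from the gene start, the match begins at -234 in Fga and at -162 in Fgb, and the Fgg window has none. Fga was at -4.20, -2.60 and -2.18 at day 0 and at 3.27, 3.64 and 4.49 induced (6.80, SE 0.61, adjusted p = 4.7e-05), and Fgb rose by 6.05. On both strands, 10 of 29 promoter windows of acute-phase genes held the motif (34.5%), against 7.02% of all 32851 windows, and 25 of the 32 genes had a window. Lrg1, Saa1 and Serpina3n had no match in theirs, and the genes with a match included Hamp and Serpina3g, which were not tested. Socs3 had a match at -154 in its window, chr11:117969367-117969616 (minus strand).
Socs3: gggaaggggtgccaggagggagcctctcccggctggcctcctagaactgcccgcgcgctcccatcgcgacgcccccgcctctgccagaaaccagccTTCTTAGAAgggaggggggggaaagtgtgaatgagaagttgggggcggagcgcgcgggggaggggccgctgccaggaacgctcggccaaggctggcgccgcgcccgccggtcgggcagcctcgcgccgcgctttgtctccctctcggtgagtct
A match is a run of letters and not evidence of binding.

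The 12 highest genes measured on all 6 arrays with no overlap were led by Fgg. Lrg1, a leucine-rich secreted glycoprotein of the acute-phase response, went from -4.24, -3.75 and -4.08 to 5.90, 5.72 and 5.82 (914-fold; 9.84, SE 0.30, adjusted p = 2.9e-07), with uninduced cells at 2.37, 1.61 and 1.02. Its 3 groups were far apart. C4b and Serping1, a complement component and the inhibitor of C1, rose by 8.80 and 8.43, and Apoh, a phospholipid-binding plasma protein, by 7.73. Anxa8, an annexin (8.29), Lims2, a focal adhesion adaptor (7.63), Cidea, a lipid droplet protein (7.53), and Cyp2d10, a cytochrome P450 (6.84), were among the 12 from outside the acute-phase list. Of the bounds, Reg3b, a secreted lectin, was at least 2460-fold, Mmp7, a matrix protease, at least 810-fold and Vtn, vitronectin, at least 544-fold higher.

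Plasma carriers and apolipoproteins rose in most of the list, with large differences between replicates. Of 24 genes 21 were tested and 13 rose, with a median of 2.95; of 17 measured on all 6 arrays 10 rose, with a median of 1.90, and none fell. With replicate number as a block 16 of the 21 rose, Apoa1 among them (3.53, adjusted p = 0.035, against 0.069 without it). Alb, albumin, was at -0.40, 0.56 and 3.46 at day 0, at 6.09, 4.60 and 6.60 uninduced and at 5.13, 3.22 and 7.45 induced. Day-0 replicate 3 was above induced replicate 2, so the groups overlapped, although each induced array lay above the day-0 array of its own number. The rise of 4.06 (SE 1.26, adjusted p = 0.025) lost its call without day-0 replicate 1 (3.26, adjusted p = 0.084), day-0 replicate 2 (3.74, 0.074), induced replicate 1 (4.13, 0.055) or induced replicate 3 (2.97, 0.070). It kept the call without day-0 replicate 3 (5.19, 0.0091), induced replicate 2 (5.09, 0.012) or replicate 3 in all groups (4.10, 0.015). Ttr, transthyretin, carrier of thyroid hormone, rose without overlap, from 3.05, 4.47 and 4.32 to 7.05, 7.26 and 7.48 (3.32, SE 0.34). Ahsg, fetuin-A, rose by 9.18 and Apoc1, an apolipoprotein of triglyceride-rich particles, by 6.08. Apob, Apoa2, Apoc2, Apoc3 and Rbp4 were not called, with changes between -0.47 and 0.45.

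Complement and coagulation genes rose or were not called, and none fell. Of 35 genes 23 were tested and 17 rose, with a median of 3.67 (2.88 with dim genes at their bound), and of 16 measured on all 6 arrays 10 rose. C4b was at -2.03, -2.64 and -2.17 at day 0 and at 6.5, 5.90 and 7.17 induced, and uninduced cells, at 6.43, 5.84 and 6.36, overlapped the induced ones. The block raised the count to 19. C3, the central component of complement, rose by 4.24. F2, prothrombin, was at -5.17, -3.86 and -0.85 at day 0 and at 2.38, 0.69 and 5.80 induced, with replicate 3 highest in both groups. Its rise of 6.25 (SE 1.72, adjusted p = 0.015) lost the call without day-0 replicate 1 (5.31, 0.054). Among clotting factors dim at day 0, F12 was at least 39.8-fold, F10 at least 13-fold, F11 at least 7.64-fold and F5 at least 7.07-fold higher, while Serpinc1, antithrombin, was not called (0.05), though its other probe gave 3.78 and the mean of both was called (1.92). The call of F10 was lost without day-0 replicate 2 (5.87, adjusted p = 0.052) and without replicate 3 in all groups (4.25, 0.13).

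**Figure D3:**
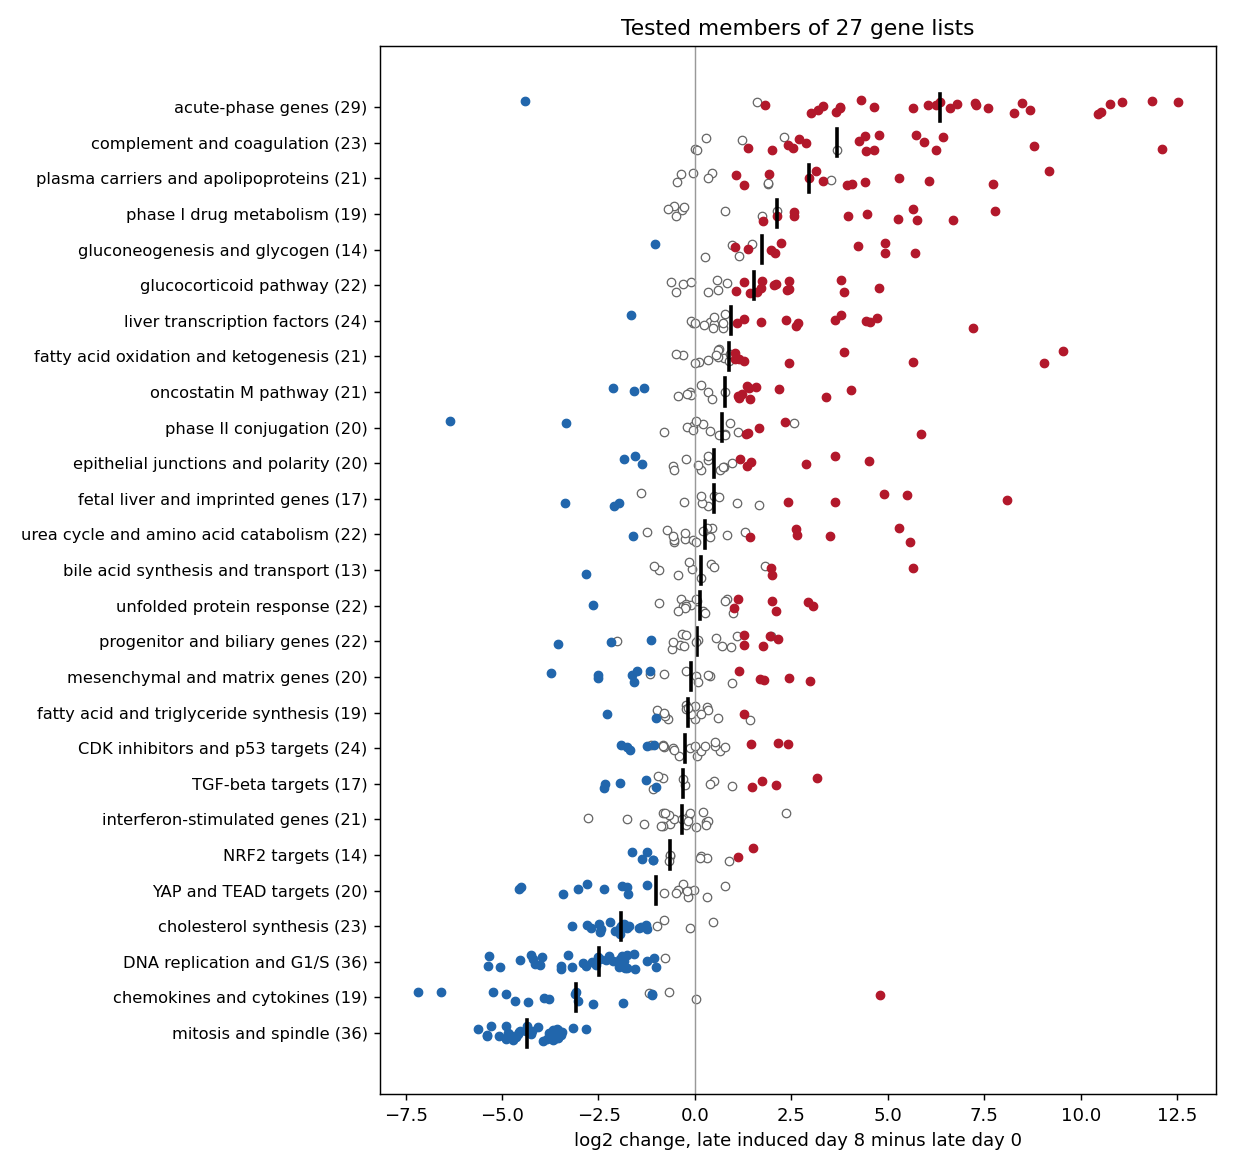
Log2 change from day 0 to induced day 8 for each tested member of 27 gene lists, 1 row a list (red, rose; blue, fell; open, not called; bar, median of the members; dim genes at their fitted values). Mitosis and DNA replication members lie below 0 throughout and acute-phase members above it except Il1rn, while the interferon row has open points throughout.

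Of the liver transcription factors, 12 of 24 tested rose and 1 fell; of 18 measured on all 6 arrays 7 rose. Cebpa, a factor of mature hepatocytes that restrains proliferation, well above background on 1 day-0 array, was at -4.65, -5.03 and -3.84 at day 0, at -1.87, -2.32 and -1.72 uninduced and at 0.09, -0.24 and 0.27 induced. Each step separated the groups, with a rise from day 0 of 23.3-fold (4.55, SE 0.30, adjusted p = 9.3e-06). Onecut1, also called HNF6, rose by 3.79, and Creb3l3, a liver factor of the endoplasmic reticulum that activates acute-phase and lipid genes, by 7.21. Hnf4a, the central hepatocyte factor, was at 4.78, 5.45 and 5.28 at day 0 and at 4.55, 4.90 and 5.93 induced. Those groups overlapped and the change was -0.05 (SE 0.34). Foxa1 (0.24) was not called either. Gata4, which fell, was dim after induction (at least 2.25-fold lower) and lost the call under normexp background correction (-0.57) and without replicate 3 in all groups (-1.72, adjusted p = 0.069).

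Drug-metabolism genes rose mostly from dim levels. Of 30 phase I genes 19 were tested and 11 rose, with a median of 2.13, but of 10 measured on all 6 arrays 2 rose and the median was 0.25. Cyp2a5, a cytochrome P450, well above background on 2 day-0 arrays, went from -4.62, -4.71 and -4.97 to 0.48, 0.79 and 1.37 (5.65, SE 0.27), with uninduced cells at -3.59, -3.81 and -3.01. Cyp4b1 rose by 6.69, and Cyp4f14, dim at day 0, was at least 58.2-fold higher. Cyp3a11, the main drug-metabolizing P450 of its family in mouse liver, was at -4.20, -4.23 and -4.19 at day 0 and at -2.42, -3.92 and 0.12 induced. It was not called (2.13, SE 0.85, adjusted p = 0.062) except without induced replicate 2 (3.06, adjusted p = 0.0071), and without induced replicate 3 the change was 1.03. Of 20 tested phase II genes 5 rose (25%, against 11.1% of all genes) and 2 fell (10%, against 9.75%). Of 18 on all 6 arrays 5 rose (27.8%, against 8.94%) and 1 fell (5.56%, against 8.62%). With replicate number as a block 7 rose, the further 2 being Sult1d1 (2.57, adjusted p = 0.0061, against 0.067 without it) and Ugt2b34 (1.12, 0.017 against 0.053), and without replicate 3 in all groups 3 rose. Sult1a1, a sulfotransferase, rose by 5.87, whereas the glutathione transferases Gsta2 and Gsta4 fell by 6.35 and 3.35. Gsta3 of the same family rose by 1.66, a call that was lost without induced replicate 2 (1.45, adjusted p = 0.062) and without replicate 3 in all groups (1.81, 0.098).

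Of 31 urea cycle and amino acid catabolism genes 22 were tested, of which 6 rose (27.3%, against 11.1% of all genes) and 1 fell, with a median of 0.26; without induced replicate 3, 2 fell. Of 18 measured on all 6 arrays 2 rose (11.1%, against 8.94%) and 1 fell, with a median of -0.01. Glul, glutamine synthetase of perivenous hepatocytes, was at 0.40, 0.66 and 0.40 at day 0 and at 3.22, 3.13 and 3.04 induced. It rose 6.23-fold (2.64, SE 0.15, adjusted p = 4.1e-06), and uninduced cells were at 1.33, 0.76 and 1.09. Cps1, the first enzyme of the urea cycle, was dim at day 0 and at least 2.69-fold higher, and Ass1 and Asl, which follow it, had changes of -0.26 and -0.54. Gls2, the liver-type glutaminase, fell by 1.60.

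Gluconeogenesis and fat-oxidation genes rose in part. Of 14 tested gluconeogenesis and glycogen genes 9 rose and 1 fell, with a median of 1.73; of 12 on all 6 arrays 7 rose. The call of the 1 that fell was lost without day-0 replicate 2, induced replicate 1 or induced replicate 2. G6pc, glucose-6-phosphatase, the last step of glucose release, was at -3.87, -4.58 and -3.62 at day 0 and at 0.93, 0.26 and 3.85 induced (5.71, SE 1.04, adjusted p = 0.002). Induced replicate 3 was the highest, and without it the change was 4.62. Gckr, the regulator of glucokinase, rose by 4.93. Among fatty acid oxidation genes 9 of 21 rose and none fell, with a median of 0.88, and of 19 on all 6 arrays 7 rose. Ppara, the nuclear receptor of fasting, rose by 1.28 and Cpt1a, which admits fatty acids to mitochondria, by 1.03, a call lost under normexp background correction (1) and without day-0 replicate 1 (0.95) or induced replicate 2 (0.97). Fabp1, the liver fatty acid binding protein, went from a dim -6.85, -7.05 and -6.86 to 2.86, -1.36 and 4.87, at least 121-fold, but without replicate 3 in all groups its call was lost (7.70, adjusted p = 0.070). Of 13 tested bile acid genes 3 rose, led by Acox2, a peroxisomal oxidase of bile acid side chains (5.64), and 1 fell, the export pump Abcc4 (-2.83). Of 12 on all 6 arrays 2 rose (16.7%, against 8.94% of all genes so measured) and 1 fell (8.33%, against 8.62%). Of the 13, 3 fell without induced replicate 3 and 2 without day-0 replicate 1.

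Cholesterol synthesis genes fell. Of 23 cholesterol genes, all measured on all 6 arrays, 19 fell and none rose, with a median of -1.92. Idi1, isopentenyl diphosphate isomerase, was at 5.25, 5.38 and 5.06 at day 0, at 2.35, 2.48 and 2.06 uninduced and at 2.11, 2.07 and 1.97 induced. Both day-8 groups lay below all day-0 arrays by at least 2 units, and the fall was 9.08-fold (-3.18, SE 0.13, adjusted p = 8.4e-07). Insig1, which retains the sterol-sensing complex in the endoplasmic reticulum, fell by 2.79 and Cyp51, lanosterol demethylase, by 2.70. Among the 4 that were not called were Srebf2, the transcription factor of the pathway (-0.12, other probe -1.08), Ebp (0.46) and Sqle (-0.99). Sqle passed 2-fold under normexp background correction (-1.03), without day-0 replicate 3 (-1.01) and without replicate 3 in all groups (-1.08). Sqle also passed without induced replicate 3 (-1.06). Slide as a block gives that same fit, because induced replicate 3 was alone on its slide. The sterol response motif CACCCCAC, searched on both strands, was in 1 of 18 promoter windows of the list (5.56%) and 2.58% of all windows. Of 19 fatty acid and triglyceride synthesis genes, all measured on all 6 arrays, 2 fell (10.5%, against 8.62%) and 1 rose. Elovl6, an elongase, fell by 2.28 and Fads2, a desaturase, by 1.02, and Plin2, a lipid droplet coat protein, rose by 1.27. The call of Fads2 was lost under quantile normalization (-0.96) and normexp (-0.98), without day-0 replicate 1 or 2 (-0.99 each) and without replicate 3 in all groups (-0.97). Its call was also lost without induced replicate 3 (-0.90), again the same fit as slide as a block.

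Fetal and progenitor genes had no shared direction. Of 17 tested fetal and imprinted genes 5 rose and 3 fell. On all 6 arrays 10 were measured, of which 1 rose (10%, against 8.94% of all genes) and 3 fell (30%, against 8.62%). Igf2, the fetal insulin-like growth factor, rose from -4.85, -3.91 and -4.78 to 3.44, 3.86 and 3.42 (8.09, SE 0.55, adjusted p = 1e-05), and was at 1.90, -0.49 and 0.29 in uninduced cells. Its neighbour H19 rose by 4.89, a call lost without replicate 3 in all groups (5.37, adjusted p = 0.067), and Meg3, another imprinted RNA, by 5.50. Afp, alpha-fetoprotein, overlapped, at 3.05, 2.88 and 3.09 against 2.67, 3.99 and 3.34 (0.33, adjusted p = 0.50). Hmga2, a chromatin protein of embryonic cells, fell by 3.36. Of 22 tested progenitor and biliary genes 5 rose and 3 fell, and of 17 on all 6 arrays 5 rose and 2 fell. Sox9, a transcription factor of biliary and progenitor cells, rose from 1.14, 1.15 and 0.90 to 3.24, 3.52 and 2.88 (2.15, SE 0.20), and uninduced cells were level with the induced ones at 3.04, 3.34 and 2.73. Prom1 and Itgb4 rose by 1.77 and 1.94, although the other probe of Prom1 gave -0.51 and 1 of Itgb4 gave 0.95. Krt19, a biliary keratin, was at 4.17, 3.83 and 4.34 at day 0 and at 2.99, 1.65 and 1.60 induced, which was called with replicate number as a block (-2.03, adjusted p = 0.030) or in a fit of the 6 arrays alone (0.0065) but not in the fit of 9 (0.065). Krt7 (0.55) and Epcam (0.02) overlapped between groups.

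Cell-cycle genes fell nearly without exception. Of 36 mitosis and spindle genes all 36 fell, with a median of -4.36, and of 36 DNA replication and G1/S genes 35 fell, with a median of -2.49; Cdk4 (-0.77) did not reach 2-fold. Of the 33 members of each list measured on all 6 arrays, 33 and 32 fell. Ccnb1, cyclin B1 of mitotic entry, was at 3.07, 3.06 and 2.90 at day 0, at -0.29, 0.01 and -0.25 uninduced and at -1.67, -1.78 and -1.64 induced. The fall was 26.1-fold (-4.71, SE 0.10, adjusted p = 2.1e-07), and induced cells were lower than uninduced cells by 1.52 (adjusted p = 0.00016). Mki67, the proliferation marker Ki-67, went from 4.58, 4.63 and 4.66 to 0.45, 0.41 and 0.35 (-4.22, SE 0.10), with uninduced cells between at 1.58, 1.96 and 1.77. The 3 groups did not overlap for either gene, and replicates lay close together. Ccnd1, the G1 cyclin, fell by 4.02, Espl1, separase, by 5.40, Bub1, a checkpoint kinase, by 5.62 and E2f7 and E2f8, repressors of cell-cycle genes, by 5.37 and 5.35, though 1 probe of E2f7 gave 0.18. Of the mitosis genes 25 were lower in induced than in uninduced cells, and of the replication genes 8 were lower and 1 was higher.

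Promoters of mitosis genes commonly hold CCAAT boxes and a cell-cycle homology region, TTTGAA, that a repressor complex binds. Windows of Ube2c and Cdc20, which drive the exit from mitosis, are shown with CCAAT and TTTGAA in capitals on either strand, so that ATTGG and TTCAAA are their reverse complements. They lie at chr2:164769679-164769928 (plus strand) and chr4:118437344-118437593 (minus strand), build GRCm38.p6.
Ube2c: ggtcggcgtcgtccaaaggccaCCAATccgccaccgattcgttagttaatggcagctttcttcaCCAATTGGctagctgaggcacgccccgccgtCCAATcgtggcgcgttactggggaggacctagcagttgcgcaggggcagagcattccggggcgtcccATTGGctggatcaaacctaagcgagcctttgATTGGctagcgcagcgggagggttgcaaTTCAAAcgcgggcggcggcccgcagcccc
Cdc20: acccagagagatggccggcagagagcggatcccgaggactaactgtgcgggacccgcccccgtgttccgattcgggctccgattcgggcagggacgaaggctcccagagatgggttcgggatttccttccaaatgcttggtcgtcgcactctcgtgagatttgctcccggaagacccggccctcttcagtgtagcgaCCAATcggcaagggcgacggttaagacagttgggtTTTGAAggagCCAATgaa
The TTTGAA match begins at -29 in Ube2c and at -18 in Cdc20. Ube2c fell from 3.97, 3.96 and 3.78 to -1.29, -1.29 and -1.57 (39.1-fold) and Cdc20 by 4.56. Of 32 promoter windows of mitosis genes 25 held CCAAT (78.1%), against 33.8% of all windows, and 12 held TTTGAA (37.5%), against 16%. Of 33 windows of DNA replication genes 4 held the E2F motif TTTCCCGC (12.1%), against 0.895% of all windows and none of the 32 mitosis windows. Windows were available for 30 of the 36 mitosis genes and 27 of the 36 replication genes.

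Inhibitors of the cell cycle did not rise as a group. Of 24 CDK inhibitors and p53 targets, all measured on all 6 arrays, 3 rose (12.5%, against 8.94% of all genes so measured) and 5 fell (20.8%, against 8.62%). Their median was -0.27, and 3 fell without replicate 3 in all groups. Cdkn1a, which encodes p21, was at 2.87, 2.77 and 2.90 at day 0 and at 3.03, 2.92 and 2.77 induced, which overlapped (0.06, SE 0.10); its 3 probes ranged from -1.66 to 2.39. Cdkn1c, the imprinted inhibitor p57, rose by 2.40, Fas, the death receptor, by 2.15, and Gadd45a by 1.45, though the probes of Fas ranged from -0.73 to 2.15. Trp53 fell by 1.92 and Cdkn2b, p15, by 1.75, and Cdkn2a, at 4.79, 4.78 and 4.57 against 4.21, 4.33 and 3.15, was not called (-0.82, adjusted p = 0.053) except without induced replicate 2 (-1.03, 0.033).

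Targets of YAP and TEAD fell, and mesenchymal genes were mixed. Of 20 YAP and TEAD genes 10 fell and none rose, with a median of -1.02, and 9 were lower than in uninduced cells; of 19 on all 6 arrays 9 fell. Cyr61, a matricellular protein, was at 5.50, 5.51 and 5.31 at day 0, at 4.38, 3.71 and 4.20 uninduced and at 1.17, 1.27 and 0.37 induced. The groups did not overlap, and the fall was 22.7-fold (-4.50, SE 0.26, adjusted p = 4.3e-06). F3, tissue factor, fell by 3.42, and Areg, a ligand of the EGF receptor, was dim after induction and at least 14.7-fold lower. Ctgf, a relative of Cyr61, was at 5.69, 5.81 and 5.78 at day 0 and at 5.05, 5.67 and 5.28 induced (-0.43, not called), and Yap1 (-0.16) and Wwtr1 (-0.19), the coactivators, were not called.

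Of 20 tested mesenchymal and matrix genes 5 rose and 7 fell, of 19 on all 6 arrays 4 rose and 7 fell, and of 28 on the list the collagens Col1a1, Col1a2 and Col3a1 were not tested. Vim, vimentin, was at 6.14, 6.24 and 6.25 at day 0 and at 6.28, 6.51 and 5.97 induced (0.04, SE 0.14). Thbs1, thrombospondin, fell from -0.09, -0.33 and 0.28 to -3.38, -4 and -3.96, while uninduced cells stayed within 1 unit of day 0 at 0.59, -0.27 and -0.04. Fn1, fibronectin, which liver cells also secrete into plasma, rose by 1.79, and Snai1, a transcription factor of epithelial-mesenchymal transition, by 2.99. Of 6 tested markers of stellate cells and fibroblasts 1 rose, Dcn, decorin, at least 4.91-fold, and of 3 tested mesothelial markers 1 rose, Wt1, by 4.28, though its other probe gave -0.53. Reln, reelin, a stellate marker dim after induction, and Msln, mesothelin, were not called (-2.06, adjusted p = 0.071, and -2.22, 0.052), but both fell with replicate number as a block (0.0083 and 0.0032). The summed mesothelial marker signal was 17.3 to 57.5 at day 0 and 5.50 to 12.8 induced, and its part in these changes was not tested. Of 17 tested TGF-beta genes 4 rose and 5 fell, as did 4 and 5 of 16 on all 6 arrays. Bambi, a decoy receptor, rose by 3.17 and Pmepa1 by 2.09, whereas Tgfb2, a ligand, fell from 3.31, 3.29 and 3.32 to 1.09, 0.94 and 0.81, below uninduced cells at 3.06, 2.62 and 3.12.

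Chemokines and cytokines fell with induction. Of 26 genes 19 were tested, of which 15 fell and 1 rose, with a median of -3.08, and 15 were lower and 1 higher than in uninduced cells; of 16 on all 6 arrays 13 fell. Ccl20, a chemokine that draws lymphocytes and dendritic cells, was at 2.46, 4.43 and 3.08 at day 0, at 0.39, 0.31 and 1.33 uninduced and at -3.85, -3.72 and -3.96 induced. It had the largest fall among genes measured on all 6 arrays with no overlap, 144-fold (-7.17, SE 0.47, adjusted p = 9.2e-06). Il11, a cytokine that like oncostatin M signals through gp130, was next, from 4.71, 4.30 and 4.04 to -1.45, -1.97 and -3.27 (-6.58, SE 0.53). Cxcl10, an interferon-induced chemokine, fell by 5.23, and Ccl2, which draws monocytes, by 3.08. Cxcl12, which retains blood progenitor cells, rose by 4.81.

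The NF-kB motif, GGG, any 2 bases and TTTCC, was found on either strand in 7 of 21 promoter windows of this list (33.3%), against 1.41% of all windows, and 19 of the 26 genes had a window. Those of Ccl20 at chr1:83116516-83116765 and Cxcl1 at chr5:90890995-90891244, both on the plus strand of GRCm38.p6, are shown with the matches in capitals.
Ccl20: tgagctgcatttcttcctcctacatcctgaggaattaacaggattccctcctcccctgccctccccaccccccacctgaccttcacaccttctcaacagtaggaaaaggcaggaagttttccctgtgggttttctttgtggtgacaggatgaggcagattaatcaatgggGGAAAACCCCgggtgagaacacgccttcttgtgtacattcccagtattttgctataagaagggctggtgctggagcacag
Cxcl1: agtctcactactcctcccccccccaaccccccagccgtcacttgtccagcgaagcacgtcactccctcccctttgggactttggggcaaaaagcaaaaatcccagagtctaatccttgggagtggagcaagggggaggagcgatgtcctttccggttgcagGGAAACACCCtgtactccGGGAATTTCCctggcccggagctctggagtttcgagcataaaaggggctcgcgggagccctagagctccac
The match begins at -80 in Ccl20, and the pair in Cxcl1 at -89 and -71. Cxcl1, a neutrophil attractant, fell by 3.03. Cxcl10 had no match in its window and fell as well. The list members with a match included Ccl9 and Il6, which were not tested.

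The remaining largest falls mixed several kinds of gene. Among the 12 lowest with no overlap were Fosl1, an AP-1 factor (-5.39), Sema3c, a secreted guidance protein (-5.19), Kif23, a mitotic kinesin (-5.39, with another probe at -0.17), and Fam64a, a mitotic regulator (-5.54), with Gm10639 (-6.04) and 5830416P10Rik (-5.31). Sema3c was at 2.83, 2.58 and 3.00 at day 0 and 2.51, 2.37 and 1.36 uninduced, and at -1.82, -2.35 and -3.01 induced. Every induced array lay below every array of the other groups, and the difference from uninduced cells was -4.47 (adjusted p = 0.00029). Genes dim after induction gave bounds of at least 161-fold lower for Clca3b, 44.9-fold for Hsd3b4, a steroid dehydrogenase, 32.7-fold for Bmp6, a bone morphogenetic protein, and 30.7-fold for Trpa1, an ion channel.

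No interferon-stimulated gene of 21 tested, all measured on all 6 arrays, was called by limma in either direction; at an unadjusted p under 0.05, 1 was lower and 0 were higher, and without induced replicate 3, 2 fell. Oas1a was at 6.44, 4.68 and 5.23 at day 0 and at 5.32, 3.69 and 5.77 induced, and Bst2 at 6.44, 4.94 and 5.37 against 5.05, 4 and 5.65. Replicates of 1 group differed by more than the groups did. With replicate number as a block, Oas2 rose (2.35, adjusted p = 0.050) and Rsad2 fell (-2.76, 0.031), against 0.17 and 0.075 without it; Rsad2 also fell without induced replicate 3 (-3.73, 0.026), and Oas2 rose without day-0 replicate 1 (3.65, 0.038). Of 14 tested NRF2 targets, all measured on all 6 arrays, 2 rose and 5 fell, with 3 falling under quantile normalization. Gsr, glutathione reductase, fell by 1.62 and Gclc, which makes the precursor of glutathione, by 1.24, while Hmox1, haem oxygenase, rose by 1.12. Of 22 unfolded protein response genes, all measured on all 6 arrays, 6 rose and 1 fell, with 2 falling without induced replicate 1. Trib3, Chac1 and Herpud1, stress targets, rose by 3.07, 2.94 and 2.09, whereas the chaperone Hspa5 had a change of 0.06 and Atf3, an early stress factor, fell by 2.64. Of 20 junction and polarity genes 6 rose and 3 fell, and of 16 on all 6 arrays 3 rose and 3 fell. Of the 20, 3 rose without day-0 replicate 1, without induced replicate 3 or without replicate 3 in all groups. Gjb1, connexin 32 of hepatocyte gap junctions, rose from -0.39, -0.01 and -0.08 to 2.23, 2.00 and 3.88 (2.87, SE 0.44), and Gja1, connexin 43, fell by 1.83.

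Replicates differed widely in several hepatocyte genes. Replicate 3, the passage 11 sample, was the highest of its group for Alb, F2, Fgg and Apoc1 both at day 0 and after induction, and induced replicate 2 was the lowest of its group for Alb, F2, Fabp1 and G6pc. Without replicate 3 in all groups the changes were 4.10 for Alb, 6.05 for F2, 5.26 for Apoc1 and 11.92 for Fgg. Leaving out induced replicate 3 lowered Ahsg to 8.47, Apoc1 to 4.79, Creb3l3 to 6.43, Cyp2d10 to 6.10, F12 to 4.81, Gckr to 3.86 and Gjb1 to 2.28. Leaving out induced replicate 2 moved Gsta2 to -5.15, Cxcl10 to -4.41, Gm10639 to -5.13, Areg to -3.87, H19 to 3.74 and Saa1 to 3.84. Without day-0 replicate 1 the rises were 6.91 for Hp, 6.19 for Fga, 5.37 for Fgb, 5.86 for Cyp4b1 and 3.81 for H19, and without day-0 replicate 3 they were 8.35 for Apoh, 6.53 for Sult1a1 and 5.31 for Wt1. All of these kept their direction. Passage, slide and replicate cannot be told apart for induced replicate 3. Across the genome 2389 genes rose and 2081 fell without replicate 3, close to the full counts.

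Much of the change from day 0 was also seen without induction, and the 2 sets of changes share their day-0 arrays, so each is given beside the other. The median change of acute-phase genes was 6.34 induced and 3.31 uninduced, that of complement genes 3.67 and 2.29, and that of mitosis genes -4.36 and -3.10. For cholesterol synthesis the medians were -1.92 and -1.96, and for DNA replication -2.49 and -2.17. Medians of chemokines were -3.08 and -0.64, of YAP and TEAD targets -1.02 and -0.27, and of glucocorticoid genes 1.53 and 0.38. The direct comparison of induced with uninduced cells called 15 of 19 chemokines lower, 9 of 20 YAP and TEAD targets lower and 9 of 22 glucocorticoid genes higher, against 2.95% of all genes in each direction, and 1 of 23 cholesterol genes higher. Alb (-0.49) and C4b (0.31) were not called in that comparison, and Afp was lower in induced cells (-1.35, adjusted p = 0.047).

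**Figure D4:**
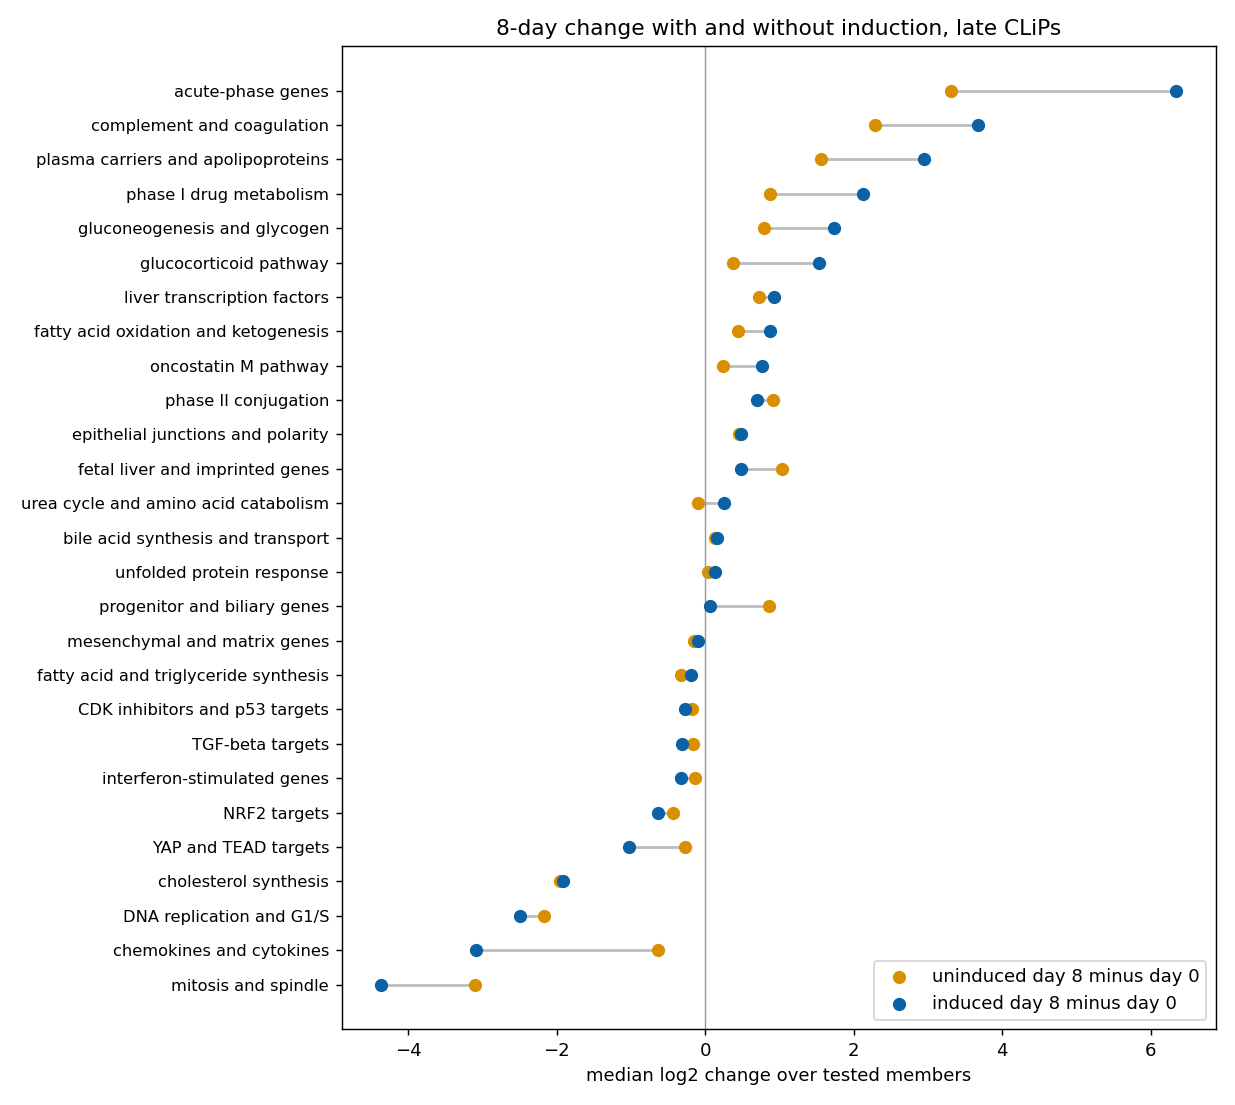
Median log2 change from day 0 (horizontal) of the tested members of 27 gene lists, 1 row a list, in uninduced cells (orange points) and induced cells (blue points), joined by a grey line; both changes share the day-0 arrays. Acute-phase genes lie at 3.31 uninduced and 6.34 induced and chemokines at -0.64 and -3.08, while the points of cholesterol synthesis touch at -1.96 and -1.92.

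The induced change was then set against that of P1 cells, as the difference of both changes in 1 limma fit of 18 arrays. Levels of P1 and late arrays were not compared, since passage and scanner software version go together. Of 21611 genes tested, the change was higher in late cells for 1296 (6.00%) and lower for 1108 (5.13%), whereas under normexp background correction 889 were higher and 942 lower. This fit also took genes clear of background on all arrays of a P1 group alone, whose late change is not measured. Such a gene, if seen in induced P1 cells alone, could enter only as lower in late cells. Cholesterol synthesis had the largest share of differing genes among the 27 lists, with 19 of 23 lower and a median change of -0.14 in P1 cells against -1.92 in late cells. Idi1 had changes of -1.32 in P1 and -3.18 in late cells (difference -1.86, adjusted p = 0.00013). In the urea cycle and amino acid list 18 of 29 were lower in late cells, and the median change in P1 cells was 2.57. Only 22 genes of this list passed the background filter on the late arrays. The others entered through P1 cells, so the size of their difference is not measured. Arg1, arginase of the urea cycle, rose by 8.07 in P1 cells and cleared background on no late array. Fetal genes had 7 of 17 higher, with Meg3 at -3.88 in P1 and 5.50 in late cells and Igf2 at 0.43 and 8.09. Hp changed by 1.55 in P1 and 7.59 in late cells (difference 6.04, adjusted p = 0.00037), and Saa1 by 9.19 and 3.18. Socs3 (4.09 and 4.05), Stat3 (1.44 and 1.43) and Cyr61 (-4.46 and -4.50) had differences of -0.05, -0.01 and -0.04 that were not called. With replicate number as a block within P1 and within late cells the difference was also called for Alb (3.75, adjusted p = 0.0042, against 0.055 without it), Krt7 (2.59, 0.0026 against 0.075) and Epcam (1.69, 0.030 against 0.28).

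**Figure D5:**
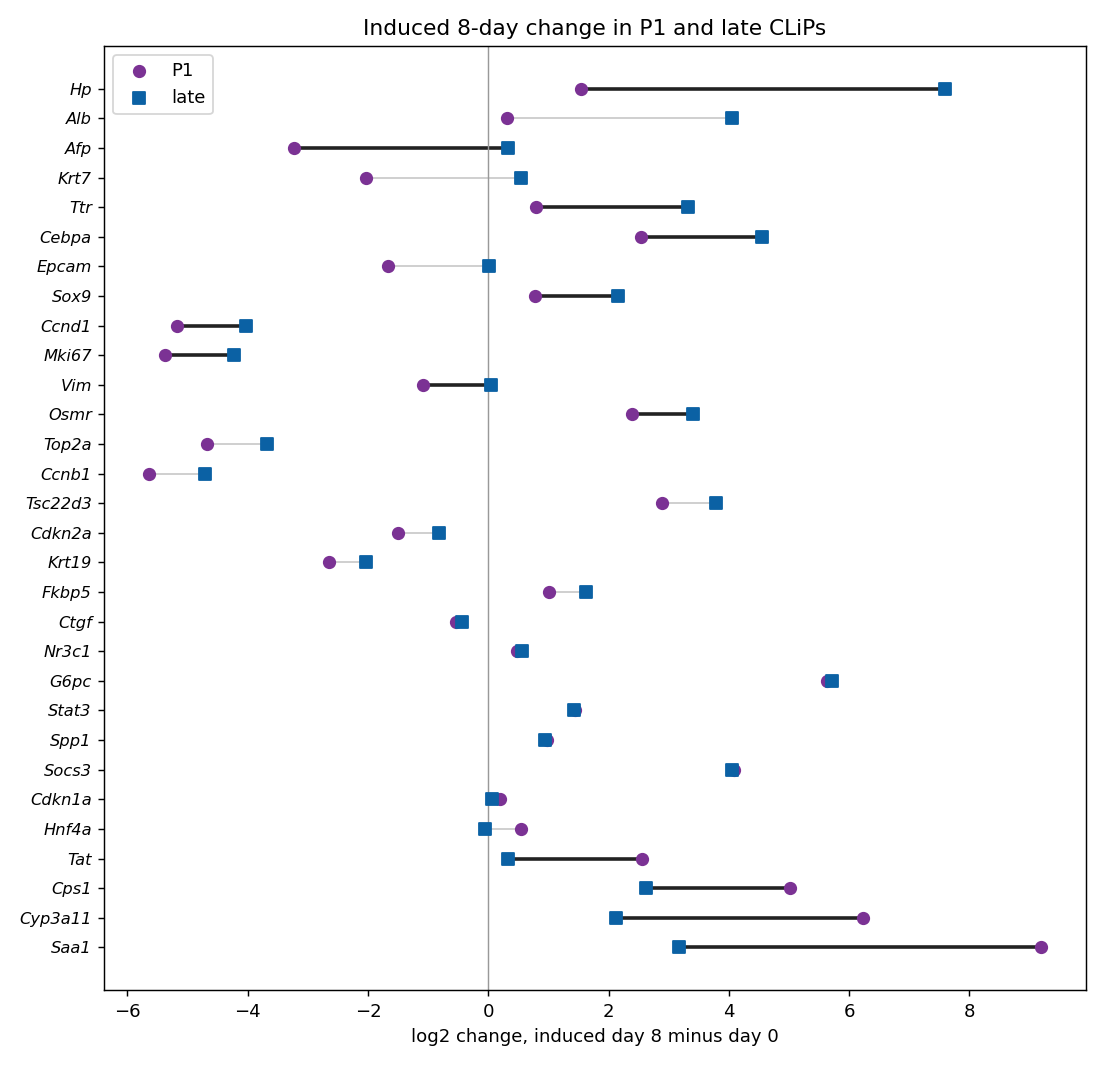
Log2 change from day 0 to induced day 8 of the core genes in P1 cells (circles) and late cells (squares), joined by a dark line where the difference of both changes was called without the block (Cps1, dim at day 0 in late cells, at its fitted value). Hp and Saa1 have the longest lines among genes tested in both, and Socs3 and Stat3 have both symbols in 1 place.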

How the data were processed

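Total RNA, amplified with a low-input Agilent kit per the labels' protocols, was hybridised to 1-colour arrays. Per the file headers, the authors deposited spot intensity from Feature Extraction 10.7.3.1 (late arrays) and 11.5.1.1 (P1 arrays), background-subtracted and not scaled between arrays. The processed intensity was taken to log2 and each array's 75th percentile subtracted. The authors' deposited log2 values of the late arrays, given for 40786 probes, showed the same differences between arrays. At the probes present in both sources, 100% of these differences were within 0.01, up to a constant of at most 0.0037. The deposited table of the P1 arrays and the 3 columns of fresh hepatocytes in the late table were not used. Some genes are not reported here. For each gene the probe with the highest mean over the 9 late arrays was taken, if well above background on all late day-0 or all late induced arrays. For the late against P1 difference, all arrays of either P1 group, day 0 or induced, also sufficed. Changes were tested with limma 3.58.1 in R 4.3.3, 1 fit of the 9 late arrays, and the late against P1 difference in a fit of 18 arrays.

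The members of the lists, and the lists themselves, were chosen with earlier results of these data known. Genes named are the 12 highest and 12 lowest, the core genes, up to 3 called members per list and direction and 6 bounds per direction; other list members were named after their values were seen. Deviations from the group means of same-numbered day-0 and induced arrays correlated at 0.39, 0.33 and 0.23, and every same-number pair of the late groups was above 0.1, so the numbers were taken to pair the samples. In simulated data, noise was drawn independently for each gene and array, and 200 genes were changed. There, 85 of 100 genes changed by 1.5 and 96 of 100 changed by 3 were called, with 3 false calls among 20891. For the late against P1 difference, 187 of 200 changed by 3 were called, with 5 false calls among 21411. Deviations shared by same-numbered arrays, slide and slide row were not simulated. Far fewer genes were changed than the 4394 called from day 0 to induced day 8. Neither the false calls nor the recovery therefore give the rates of the real comparison. The number of arrays limits the precision. Alternatives changed the normalization, background (normexp with offset 50, on median spot signals for the late arrays), filter, probes, arrays, blocks and threshold. Slide as a fixed block and leaving out induced replicate 3 are 1 and the same fit, so the slide was not adjusted for separately.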

Additional observations from a re-analysis of the deposited data

Results flagged for a closer look

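For 14 core genes the induced 8-day change differed between late and P1 cells, by limma's test of the difference of both changes, in 3 arrays a group. The change was lower in late cells for Arg1 (difference -6.19, SE 0.47, adjusted p = 1.9e-06), which rose by 8.07 in P1 cells and was not well above background on any late array, so that its late change is not measured. It was lower too for Saa1 (-6.00; 9.19 in P1 and 3.18 in late cells), Cyp3a11 (-4.11; 6.24 and 2.13) and Tat (-2.23; 2.56 and 0.33). For Cps1 the fitted difference was -2.39, with a change of 5.01 in P1 cells, but its probe was well above background on no late day-0 array, so its late change is known only as a bound, at least 2.69-fold, and the size of the difference is not measured.

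The change was higher in late cells for Hp (6.04), Afp (3.56; -3.23 in P1 and 0.33 in late cells), Ttr (2.53; 0.79 and 3.32), Cebpa (2.00; 2.54 and 4.55) and Sox9 (1.38; 0.77 and 2.15). Mki67 and Ccnd1 each had a difference of 1.15, having fallen by 5.37 and 5.17 in P1 cells and by 4.22 and 4.02 in late cells. Vim had a difference of 1.12, with -1.08 and 0.04, and Osmr one of 1.03, with 2.39 and 3.41. The call was lost for Ccnd1 under quantile normalization (0.96), for Cebpa and Mki67 under normexp (0.86 and 0.91), for Mki67 without P1 induced replicate 3 (0.95) and for Vim without late induced replicate 2 (1). For Osmr it was lost without late day-0 replicate 1 (0.99) or 2 (0.84), late induced replicate 1 (0.94), P1 day-0 replicate 1 (0.97) or P1 induced replicate 1 (0.99). The call was gained with replicate number as a block within P1 and within late cells for Alb (3.75, adjusted p = 0.0042), Krt7 (2.59, 0.0026) and Epcam (1.69, 0.030). For Alb it was also gained under quantile normalization (4.15), under normexp (3.71) and without late day-0 replicate 3 (4.87) or late induced replicate 2 (4.77). For Top2a (1) it was gained under quantile normalization (1.03) and without late day-0 replicate 1 (1.02) or 2 (1.04), late induced replicate 3 (1.06), P1 day-0 replicate 3 (1.04) or P1 induced replicate 1 (1.18). Quantile normalization also added Tsc22d3 (1.1) and Ccnb1 (1.12), leaving out late induced replicate 3 added Krt7 (3.08) and Cdkn2a (1.06), and leaving out P1 induced replicate 1 added Ccnb1 (1.16). Scanner software and passage go together in this difference and their part in it was not tested.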

How the results depend on the processing

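The 2338 genes that rose and 2056 that fell from day 0 to induced day 8 stayed within 1.5 times of those counts under every alternative run but the one without a fold minimum (5981 and 5468). Leaving out 1 array at a time gave 2168 to 2375 and 1956 to 2109. With replicate number as a block (the pairing of the samples) the counts were 2396 and 2099, with 2333 and 2047 genes called in both fits; the block ended the call of no named gene and added the calls given with it above. Without a fold minimum, 4337 genes were higher and 4989 lower in uninduced cells than at day 0, and 2232 higher and 1689 lower in induced than in uninduced cells. Normexp background correction left 386 genes lower in induced than in uninduced cells, against 622, and requiring signal well above background on all 6 arrays left 413 higher, against 623. Leaving out 1 array gave 1516 to 1713 higher and 1277 to 1446 lower for uninduced against day 0, 511 to 636 and 553 to 613 for induced against uninduced, and 1164 to 1441 and 994 to 1249 for late against P1. No called gene named in the text changed direction under the alternatives run. The balance of calls turned for late against P1 under normexp (889 higher and 942 lower, against 1296 and 1108) and for uninduced against day 0 without a fold minimum, and the near-even 623 and 622 of induced against uninduced went either way. Medians of lists near 0 changed sign under at least 1 alternative: bile acid genes (0.16, down to -0.02), urea cycle genes (0.26, to -0.01), progenitor genes (0.06, to -0.17), mesenchymal genes (-0.09, up to 0.08), interferon genes (-0.33, to 0.09), and markers of mesothelium (0.55, to -0.83), Kupffer cells (0.05, to -0.03) and lymphocytes (-0.11, to 0.49). The causes were not tested, except that a filter on all 6 arrays tests fewer genes. Among single genes, 3618 values of the change from day 0 kept their side of the threshold, 106 lost the call and 22 gained it, and for late against P1 the numbers were 437, 10 and 18. Dim signals at day 0 limit the largest rises to bounds.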
